A study of Mus musculus with 6 samples.

Results

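The CHMP proteins are the core subunits of ESCRT-III, and the transcripts of 10 of their mouse genes were followed here in embryonic fibroblasts carrying 1 or 2 intact copies of Lztr1. The genes were taken by symbol (Chmp1a, Chmp1b, Chmp2a, Chmp2b, Chmp3, Chmp4b, Chmp4c, Chmp5, Chmp6 and Chmp7) and matched by Ensembl number, and all 10 were found among the 51826 genes of the deposited tables. RNA had been sequenced from fibroblasts of C57BL/6 mouse embryos at passage 2 to 5, with libraries made from total RNA with an Illumina TruSeq kit. The groups were 3 heterozygous cultures (Lztr1 +/-), numbered 11, 15 and 18, and 3 wild-type cultures (Lztr1 +/+), numbered 10, 12 and 16. The labels name no treatment and do not describe the mutant allele, and they do not tie the cultures to separate embryos, so the p-values measure the spread between cultures, which may be technical. Whether fewer cells of a kind or less RNA per cell lies behind a lower level cannot be told apart in such bulk samples.

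ESCRT-III is a filament that assembles on the inner face of a membrane neck and, with the ATPase VPS4, cuts it. In fibroblasts this activity sorts ubiquitinated receptors into the vesicles of late endosomes, separates daughter cells at the end of division, and reseals the nuclear envelope and wounded plasma membrane. CHMP6 and CHMP7 start a filament, CHMP4 proteins form its bulk, CHMP2 and CHMP3 cap and bend it, and CHMP1 and CHMP5 act late, around the recruitment of VPS4. LZTR1 is the part of a CUL3 ubiquitin ligase that picks its substrates, RAS-type GTPases among them, and CHMP1A has been reported as a partner of LZTR1 in vesicle traffic. The comparison asks whether loss of 1 Lztr1 copy moves the transcripts of the complex.

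Lztr1 itself matched its labels. It stood at 45.9, 45.1 and 43.8 CPM (counts scaled to a common library size) in heterozygous cultures 11, 15 and 18, against 93.9, 94.1 and 83.2 CPM in wild-type cultures 10, 12 and 16. Library totals ran from 11025286 to 21885101 expected counts. Wild-type culture 16 lay farther from the other wild-type cultures than they did from each other, with a root mean square log2 difference over genes of 0.466 from culture 10 and 0.498 from culture 12, against 0.377 between 10 and 12. All 10 fibroblast markers examined were above 1 TPM (abundance scaled for transcript length and library size) on average, and their summed level was 9097 to 10307 TPM in heterozygous and 9449 to 11129 TPM in wild-type cultures. The summed levels of 6 other marker lists (erythroid, macrophage, epithelial, endothelial, skeletal muscle, neural and Schwann) overlapped between the genotypes. No marker was at 0 in all 6 libraries. In heterozygous and then wild-type cultures, skeletal muscle sums were 494 to 697 and 554 to 796 TPM. Macrophage sums were 309 to 550 and 390 to 501.5 TPM, erythroid sums 254 to 508 and 127 to 442 TPM. Neural and Schwann sums were 250 to 337 and 196 to 279 TPM, epithelial sums 96 to 242 and 109 to 177 TPM. Endothelial sums were 13.6 to 17.9 and 10.45 to 14.95 TPM. Overlapping sums do not show that the cultures held fibroblasts alone or the same mix of cells.

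No CHMP transcript differed between heterozygous and wild-type cultures beyond the gene-wide threshold. In edgeR's quasi-likelihood test over 14652 genes, with Benjamini-Hochberg adjusted p under 0.05 as the call, 0 of 10 members were called, 0 higher and 0 lower, where 0.00683% of all genes (Lztr1 alone) were called. DESeq2 gave an adjusted p to 7 of the 10, leaving out Chmp1b, Chmp4c and Chmp6 by its own filter. It called 0 of those 7, where 2.35% of the 4900 genes with an adjusted p were called. By DESeq2 0 of 10 had an unadjusted p under 0.05, where 1350 genes of the whole table did. Those 1350 were counted over all genes given a p, a wider set than the 4900, and their share was not computed. In the block of cultures registered first (15 and 18 against 10 and 12) edgeR called 9.83% of genes and 0 members. Both heterozygous cultures of that block have higher numbers than both wild-type ones, so genotype and run of culture numbers cannot be told apart in it. In edgeR 2 members, Chmp2a and Chmp2b, had an unadjusted p under 0.05, 2 lower and 0 higher in heterozygous cultures, against 12.2% of all genes in either direction, 6.65% lower and 5.56% higher. That count was 0 without heterozygous culture 18, where 1113 of 15094 genes were under 0.05. It was 1 without heterozygous culture 15 (1185 of 14679 genes), wild-type culture 12 (1148 of 15096) or wild-type culture 16 (3561 of 15113). It was also 1 with a term for Y-linked expression (1464 of 14652 genes) and with no low-count filter (2318 of 25229). Of the 10 members 7 had a lower and 3 a higher mean in heterozygous cultures, and the median log2 difference was -0.03, beside -0.0018 over all genes tested. Members were estimated closely. Their median SE was 0.070 on the log2 scale against 0.11 over all genes, and for 9 of 10 members the 95% interval of the difference stayed inside a 1.5-fold change either way, Chmp4c being the exception.

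**Figure D1:**
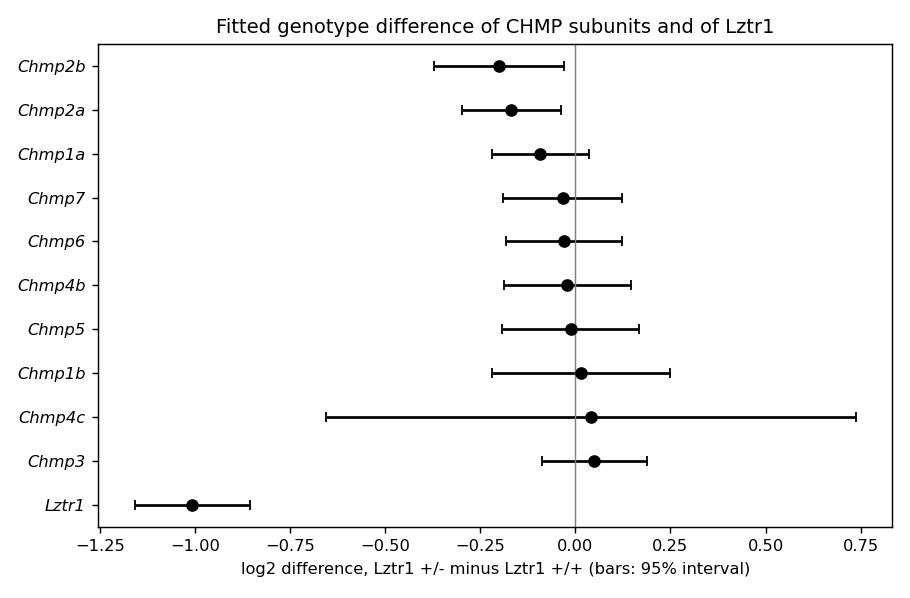
Fitted log2 difference of each CHMP transcript and of Lztr1 (heterozygous minus wild-type, x axis), with bars for the 95% interval of the edgeR fit over 3 cultures each. The 10 CHMP estimates lie between -0.20 and 0.05, those of Chmp2a and Chmp2b with intervals below 0, and Lztr1 lies at -1.01.

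The complex was transcribed at very unequal levels per subunit. The order was the same in TPM, in FPKM and in counts per effective length. These units rescale the same counts per length within each library, so the shared order is not an independent check. Mean TPM over the 6 libraries was 187.4 for Chmp4b, 101.5 for Chmp2a, 77.1 for Chmp1a, 74.6 for Chmp3, 70.1 for Chmp5, 54.7 for Chmp2b, 41.9 for Chmp6, 35.5 for Chmp7, 24.3 for Chmp1b and 0.707 for Chmp4c. The filament-forming subunit gene Chmp4b thus led, and its paralogue Chmp4c was nearly silent. Among neighbours in this order the ranges over 6 libraries overlapped for Chmp1a and Chmp3 and for Chmp3 and Chmp5. Chmp1a was above Chmp3 in 3 of 6 libraries, while Chmp3 was above Chmp5 in 6 of 6. All other neighbours had ranges that did not overlap. The 9 members other than Chmp4c spanned a 7.72-fold range, and the lowest of them, Chmp1b, was 34.3 times the level of Chmp4c. Against the 14652 tested genes, whose median was 15.1 TPM, Chmp4b ranked above 94.5%, Chmp2a above 89.5%, Chmp1a above 86.1% and Chmp4c above 3.62%.

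**Figure D2:**
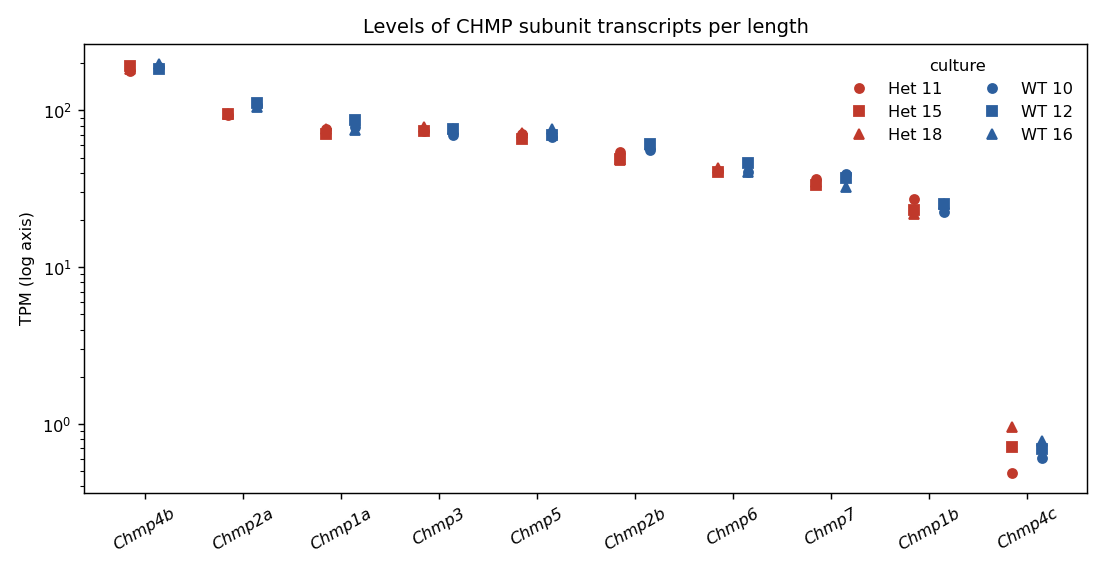
TPM of each CHMP transcript (y axis, log scale) in the 3 heterozygous cultures (red, left) and the 3 wild-type cultures (blue, right), in order of mean level. Chmp4b is at the top in every library, with 179.5 to 196.4 TPM, and Chmp4c at the bottom, with 0.49 to 0.96 TPM.

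Summed over the 10 genes, CHMP transcripts amounted to 652.7, 643.6 and 652.8 TPM in heterozygous cultures 11, 15 and 18, and to 671.2, 699.2 and 687.6 TPM in wild-type cultures 10, 12 and 16. Every heterozygous sum lay below every wild-type sum, at 649.7 ± 5.29 TPM in heterozygous and 686.0 ± 14.1 TPM in wild-type cultures (SD, n = 3 each). Chmp1a, Chmp2a and Chmp2b together made up 219.0 TPM in heterozygous and 247.6 TPM in wild-type cultures. The other 7 members made up 430.7 TPM in heterozygous and 438.4 TPM in wild-type cultures. The 3 were grouped because all their heterozygous CPM values lay below all wild-type values, so a lower part in heterozygous cultures follows from that choice. The sum is given as a description, without a test. Chmp4b contributed 28.5% ± 1.19 of it in heterozygous and 27.7% ± 1.13 in wild-type cultures.

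**Figure D3:**
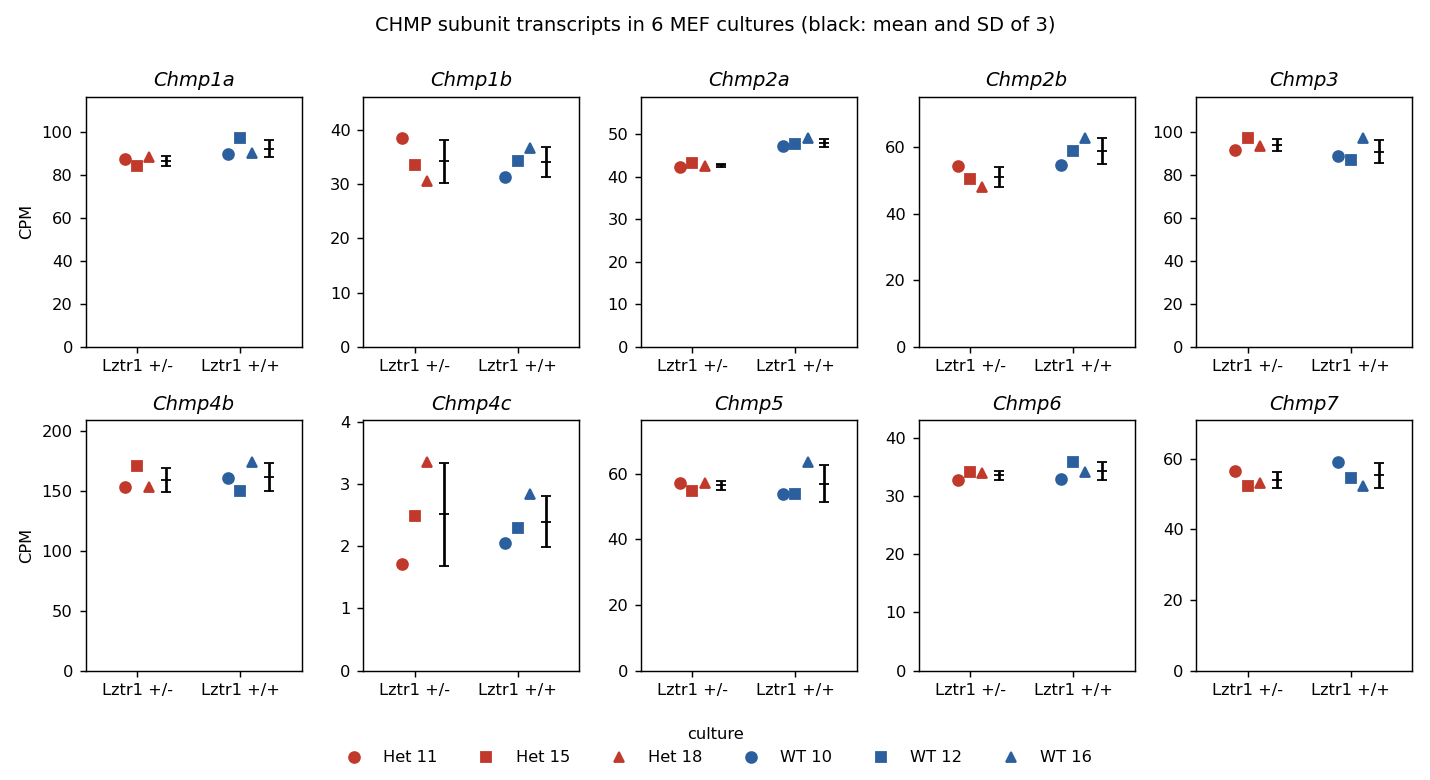
CPM of each CHMP transcript (y axes, from 0) in each heterozygous culture (red, left) and wild-type culture (blue, right), with the mean and SD of 3 in black. Heterozygous points lie below all wild-type points for Chmp1a, Chmp2a and Chmp2b, and the groups overlap for the other 7.

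Among the 10 members, the heterozygous and wild-type cultures did not overlap in CPM for 3, Chmp1a, Chmp2a and Chmp2b, all lower in heterozygous cultures. Over all genes tested 17.7% did not overlap in either direction, 9.97% lower and 7.75% higher. Upstream sequence of these 3 genes is shown because they are the members whose cultures separated by genotype. It comes from the RefSeq promoter table for GRCm38.p6 (the assembly also called mm10), which held 6 of the 10 members, and is cut to the stretch within 250 bases of the RefSeq start in which GENCODE M21 annotates no exon. All lines read 5′ to 3′ on the gene's strand (minus in each case), and capitals mark matches to the motifs searched.
Chmp1a, chr8:123212789-123212831: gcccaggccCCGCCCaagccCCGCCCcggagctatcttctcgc
Chmp2a, chr7:13034808-13035027: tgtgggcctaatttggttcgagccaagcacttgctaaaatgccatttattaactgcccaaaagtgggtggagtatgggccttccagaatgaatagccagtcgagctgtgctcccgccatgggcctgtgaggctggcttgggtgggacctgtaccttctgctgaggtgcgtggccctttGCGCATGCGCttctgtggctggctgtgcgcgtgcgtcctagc
Chmp2b, chr16:65562763-65563012: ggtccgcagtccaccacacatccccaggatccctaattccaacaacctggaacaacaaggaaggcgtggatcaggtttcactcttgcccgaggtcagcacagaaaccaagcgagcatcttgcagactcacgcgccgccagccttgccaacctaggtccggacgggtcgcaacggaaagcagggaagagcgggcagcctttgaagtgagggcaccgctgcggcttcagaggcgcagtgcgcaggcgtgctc

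The short Chmp1a stretch is bounded by an exon of Spata33, which is annotated in the window. The motifs, read on both strands in the full 250 bases, were the TATA box (TATAAA), the CCAAT box (CCAAT), the GC box (GGGCGG), the E-box core of lysosomal and autophagy promoters (CACGTG), the ETS site (CCGGAAGT) and the NRF1 site (GCGCA followed by its reverse complement). The GC box was present upstream of Chmp1a, Chmp3 and Chmp5, 3 of 6 members, and in 32.7% of the 32851 promoters of the table. The NRF1 site was present upstream of Chmp2a, 1 of 6, and in 0.782% of promoters. The CCAAT box was present upstream of Chmp3, 1 of 6, and in 33.8% of promoters. TATAAA (12.4% of promoters), CACGTG (6.02%) and CCGGAAGT (2.88%) were in none of the 7 windows of the 6 members. Chmp3 has more than 1 window and was counted if any of them held the motif, while the percentages count single promoters. GC content of the 250 bases was 70.0% for Chmp1a, 58.0% for Chmp2a and 61.2% for Chmp2b, beside a median of 52.4% over all promoters. These 3 windows shared no motif of the set, and a match is a run of letters, not a measured binding site.

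The 2 CHMP2 subunits gave the largest differences. Chmp2a (ENSMUSG00000033916.5, minus strand, chr7:13032010-13034807) encodes the subunit that, with CHMP3, binds the CHMP4 filament and offers a docking site to VPS4. It measured 42.3, 43.1 and 42.5 CPM in heterozygous cultures 11, 15 and 18, and 47.2, 47.6 and 49.0 CPM in wild-type cultures 10, 12 and 16. The heterozygous values lay within 1 CPM of each other and below all wild-type values. The means were 42.6 ± 0.418 CPM in heterozygous and 47.9 ± 0.932 CPM in wild-type cultures (SD, n = 3 each). The fitted log2 difference was -0.17 (SE 0.056, 95% interval -0.30 to -0.04), or 89.0% of the wild-type level, with an adjusted p of 0.335 by edgeR, so it did not pass. As a difference of mean log2 CPM it was -0.16 in the run of cultures 10 to 12 and -0.19 in that of 15 to 18. In deposited TPM the cultures again did not overlap, at 94.3 ± 0.485 in heterozygous and 108.6 ± 3.27 in wild-type cultures.

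Chmp2b (ENSMUSG00000004843.6, minus strand, chr16:65539128-65562726) encodes the related subunit whose human mutations cause a form of frontotemporal dementia. It lies on the chromosome of Lztr1, 48.0 Mb from it. Its levels were 54.4, 50.6 and 48.2 CPM in heterozygous cultures 11, 15 and 18, and 54.8, 59.0 and 62.7 CPM in wild-type cultures 10, 12 and 16. Heterozygous culture 11 nearly reached wild-type culture 10, so the groups were separated by a narrow gap. The means were 51.1 ± 3.14 CPM in heterozygous and 58.9 ± 3.94 CPM in wild-type cultures, and the fitted log2 difference was -0.20 (SE 0.075, 95% interval -0.37 to -0.03), with an adjusted p of 0.363 by edgeR. It amounted to -0.06 within cultures 10 to 12 and -0.34 within cultures 15 to 18. Without wild-type culture 16, which had the highest level, the log2 difference was -0.15. Its unadjusted p by edgeR was then 0.070, higher than the 0.027 with all 6 cultures. The adjusted p was 0.255, in a fit where 5.93% of all genes were called. Over 16 alternative settings both CHMP2 genes kept a lower mean in heterozygous cultures, which the separation of their groups largely fixes. In those settings the adjusted p was never under 0.159 for Chmp2a or 0.109 for Chmp2b.

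Chmp1a (ENSMUSG00000000743.9, minus strand, chr8:123204264-123212763) encodes the late-acting subunit that binds VPS4 and that has been linked to LZTR1. It stood at 87.5, 84.1 and 88.3 CPM in heterozygous cultures 11, 15 and 18, against 89.8, 97.1 and 90.3 CPM in wild-type cultures 10, 12 and 16. All heterozygous values were below all wild-type values in CPM, but in TPM the groups overlapped, at 75.7, 70.4 and 76.5 in heterozygous cultures and 78.2, 86.9 and 75.1 in wild-type cultures. The means were 86.7 ± 2.21 CPM in heterozygous and 92.4 ± 4.11 CPM in wild-type cultures (SD, n = 3 each). By edgeR the fitted log2 difference was -0.09 (SE 0.055), which did not pass (adjusted p = 0.519). Its 95% interval ran from 85.9% to 102% of the wild-type level, while Lztr1 was at 49.7% (interval 44.7% to 55.3%). Permuting the CPM values over the cultures (exact test, two-sided) gave p = 0.1, and no smaller p exists for groups of this size. Groups without overlap always give that value, so it adds nothing to the separation in CPM. The same permutation test on deposited TPM gave p = 0.3. Without wild-type culture 12, the highest, the log2 difference was -0.05. Within cultures 10 to 12 it was -0.09 and within cultures 15 to 18 it was -0.07.

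The profile of Chmp1a over the libraries was flat enough that many genes resembled it. By the root mean square difference of log2 CPM, each gene centred on its mean over the 6 libraries, the nearest of 13670 other protein-coding genes were Slc27a4 (0.016), Lztfl1 (0.019) and Rps6kc1 (0.021), and 3313 genes lay within 0.1. Of the other members Chmp6 (0.048), Chmp2a (0.065) and Chmp7 (0.082) were within that limit and the remaining 6 were not.

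Chmp1b (ENSMUSG00000109901.1, plus strand of chromosome 18 from 67205366 to 67207889) is the paralogue of Chmp1a, and its protein recruits the microtubule-severing enzyme spastin to the midbody. It is annotated with 1 exon, and as a retrogene. Its levels were 38.4, 33.5 and 30.6 CPM in heterozygous cultures 11, 15 and 18, and 31.3, 34.2 and 36.7 CPM in wild-type cultures 10, 12 and 16. The groups overlapped fully, with a log2 difference of 0.01 (SE 0.10, adjusted p = 0.969 by edgeR). Its direction was not stable. Cultures 10 to 12 gave 0.23 and cultures 15 to 18 gave -0.20, and it was -0.011 when scaled by library totals.

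Chmp5 (ENSMUSG00000028419.5, plus strand, chr4:40948407-40965303) encodes the late subunit that binds the VPS4 cofactor VTA1. It measured 57.3, 54.8 and 57.2 CPM in heterozygous cultures 11, 15 and 18, and 53.7, 53.7 and 63.5 CPM in wild-type cultures 10, 12 and 16. Heterozygous cultures lay between wild-type culture 16 and the other wild-type cultures. The log2 difference was -0.01 (SE 0.078, adjusted p = 0.962 by edgeR), and 0.08 with an adjusted p of 0.456 without wild-type culture 16.

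Chmp3 (ENSMUSG00000053119.11, plus strand, chr6:71543797-71582609), the capping partner of CHMP2A, had the highest fitted difference of the members. It stood at 91.5, 96.9 and 93.1 CPM in heterozygous cultures 11, 15 and 18, against 88.5, 86.6 and 96.9 CPM in wild-type cultures 10, 12 and 16. Wild-type culture 16 was as high as the highest heterozygous culture, and the groups overlapped. The log2 difference was 0.05 (SE 0.060, adjusted p = 0.764 by edgeR), 0.10 without wild-type culture 16.

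The filament genes did not separate by genotype. Chmp4b (ENSMUSG00000038467.15, plus strand, chr2:154651705-154694785) measured 153.7, 170.6 and 153.8 CPM in heterozygous cultures 11, 15 and 18, and 161.0, 150.2 and 174.3 CPM in wild-type cultures 10, 12 and 16. Heterozygous 15 and wild-type 16 were the high cultures, and the log2 difference was -0.02 (SE 0.072, adjusted p = 0.927 by edgeR). Chmp4c (ENSMUSG00000027536.6, plus strand, chr3:10366907-10428856), whose protein delays abscission under control of Aurora B in human cells, had expected counts of 37.0, 35.0 and 37.0 in heterozygous cultures 11, 15 and 18, and of 29.0, 26.0 and 31.0 in wild-type cultures 10, 12 and 16. Scaled for library size these were 1.71, 2.48 and 3.35 CPM in heterozygous and 2.04, 2.30 and 2.84 CPM in wild-type cultures, which overlapped. The log2 difference was 0.04 (SE 0.30, adjusted p = 0.968 by edgeR), with a 95% interval from 63.5% to 167% of the wild-type level, so differences within those bounds could not be detected. Counting error alone averaged 16.6% in heterozygous and 18.7% in wild-type cultures, beside a coefficient of variation in CPM of 32.8% in heterozygous and 16.9% in wild-type cultures. Chmp4c shares 330 exon bases with Snx16 on the opposite strand, and the strand setting of the counting is not given, so its few reads are uncertain.

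The genes of the initiating subunits overlapped between the genotypes. Chmp6 (ENSMUSG00000025371.12, plus strand, chr11:119913441-119919548), whose protein links ESCRT-II to CHMP4, stood at 32.7, 34.1 and 34.0 CPM in heterozygous cultures 11, 15 and 18, against 32.9, 35.9 and 34.1 CPM in wild-type cultures 10, 12 and 16. Chmp7 (ENSMUSG00000034190.8, minus strand, chr14:69717000-69732541), whose protein starts ESCRT-III on the reforming nuclear envelope, stood at 56.5, 52.4 and 53.0 CPM in heterozygous cultures 11, 15 and 18, against 59.1, 54.5 and 52.2 CPM in wild-type cultures 10, 12 and 16. Chmp6 was lowest in heterozygous culture 11, and Chmp7 highest in wild-type culture 10. The log2 differences were -0.03 (SE 0.066, adjusted p = 0.879) for Chmp6 and -0.03 (SE 0.068, adjusted p = 0.869) for Chmp7 by edgeR.

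**Figure D4:**
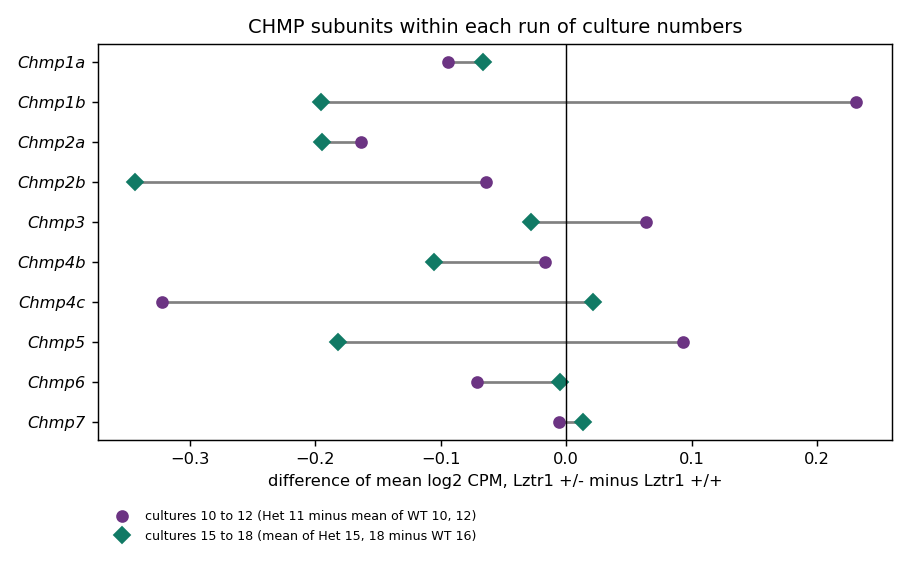
Difference of mean log2 CPM (heterozygous minus wild-type, x axis) of each CHMP transcript within the cultures numbered 10 to 12 (circles) and 15 to 18 (diamonds). Chmp1a, Chmp2a and Chmp2b are below 0 in both sets, and Chmp1b runs from 0.23 to -0.20.

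The numbers fall into the runs 10 to 12 and 15 to 18, which the labels do not call batches. In both runs the differences of Chmp1a, Chmp2a and Chmp2b were negative, as the separation of their groups fixes. Chmp4b and Chmp6 were also below 0 in both runs, and Chmp1b, Chmp3, Chmp4c, Chmp5 and Chmp7 were on opposite sides of 0. Which of these members differ between the runs was not tested.

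The counts of these genes were little shared with other loci. Of 60 member values 56 were whole numbers within 1e-06, and the rest were all of Chmp4c, where RSEM had divided reads between genes. Processed pseudogenes with at least 90% identity over at least 100 bases exist for Chmp1a, Chmp2a, Chmp3 and Chmp6. The closest, Gm37670 to Chmp3 at 97.4% over 194 bases and Gm8515 to Chmp1a at 95.9% over 584 bases, drew 1 and 4 counts over all libraries. Isoform use, seen through the abundance-weighted transcript length that RSEM reports, overlapped between the genotypes for all 7 members with more than 1 transcript. For Chmp3, with 8 annotated transcripts, it ran from 2156 to 2293 bases in heterozygous and from 2131 to 2295 bases in wild-type cultures.

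The rest of the ESCRT pathway gave no call either. The list held 32 genes that feed, regulate or disassemble ESCRT-III, of which 31 were tested and Vps28 was not analysed here. By edgeR 0 were called, 0 higher and 0 lower, with 4 at an unadjusted p under 0.05, 2 in each direction, against 12.2% of all genes. DESeq2 gave an adjusted p to 17 of the 31 and called 0 of them. By DESeq2 2 of the 31 had an unadjusted p under 0.05, where 1350 genes of the whole table did, again counted over all genes given a p. In heterozygous cultures 3 genes lay above all wild-type cultures in CPM and 6 below, beside 7.75% of all genes above and 9.97% below. The mean was higher in heterozygous cultures for 14 and lower for 17, with a median log2 difference of -0.0091. Without wild-type culture 16 edgeR called 1, Pdcd6ip, in a fit where 5.93% of all genes were called.

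The genes given here are those with the smallest p in each class, none of which passed. In ESCRT-0, which gathers ubiquitinated cargo, Stam2 differed by 0.08 (SE 0.064) and Stam by 0.04 (SE 0.058), and all 3 members were higher in mean. In ESCRT-I, Mvb12a stood at 25.6 ± 3.17 CPM in heterozygous and 30.2 ± 1.27 CPM in wild-type cultures (log2 difference -0.24, SE 0.099, adjusted p = 0.392 by edgeR), and Vps37d differed by -0.31 (SE 0.14). In ESCRT-II, which binds CHMP6, Vps36 was at 78.3 ± 0.500 CPM in heterozygous and 69.3 ± 5.36 CPM in wild-type cultures (0.18, SE 0.066, adjusted p = 0.364 by edgeR), and Vps25 differed by -0.12 (SE 0.073). The classes upstream of the CHMP filament thus had estimates on both sides of 0.

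Among the genes that act on the filament, the ATPase gene Vps4a differed by -0.11 (SE 0.053) and its cofactor gene Vta1 by 0.07 (SE 0.078). Of the Bro1 adaptors, which bind CHMP4 proteins, Brox differed by 0.13 (SE 0.062), and Pdcd6ip, encoding ALIX, by 0.15 (SE 0.082). Pdcd6ip stood at 301.4, 310.1 and 286.3 CPM in heterozygous cultures 11, 15 and 18, against 249.7, 258.9 and 303.7 CPM in wild-type cultures 10, 12 and 16. Wild-type culture 16 was inside the heterozygous range, and without it the log2 difference was 0.24 with an adjusted p of 0.0441 by edgeR. Wild-type cultures 10 and 12, which remain there, belong to the same number run and the same registration block, so genotype and block are partly confounded in it. Cc2d1b and Cc2d1a, whose proteins bind CHMP4, both differed by -0.12 (SE 0.066 for Cc2d1b and 0.068 for Cc2d1a).

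The class of recruiters that place ESCRT-III at its sites held the lowest p of the list. Of its 3 genes 1 was higher and 2 were lower in mean in heterozygous cultures, beside 50.4% of all genes lower. The 2 with the smallest p went in opposite directions. Cep55, which brings the machinery to the midbody, measured 28.2, 28.2 and 31.9 CPM in heterozygous cultures 11, 15 and 18, and 24.3, 22.6 and 26.4 CPM in wild-type cultures 10, 12 and 16. All heterozygous values were above all wild-type values, with a log2 difference of 0.27 (SE 0.090, adjusted p = 0.335 by edgeR). Lemd2, the nuclear membrane protein gene whose product binds CHMP7, measured 43.9, 41.0 and 37.1 CPM in heterozygous cultures 11, 15 and 18, and 46.3, 46.5 and 49.2 CPM in wild-type cultures 10, 12 and 16. All heterozygous values were below all wild-type values, with a log2 difference of -0.21 (SE 0.077, adjusted p = 0.354 by edgeR). Chmp7 itself differed by -0.03.

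**Figure D5:**
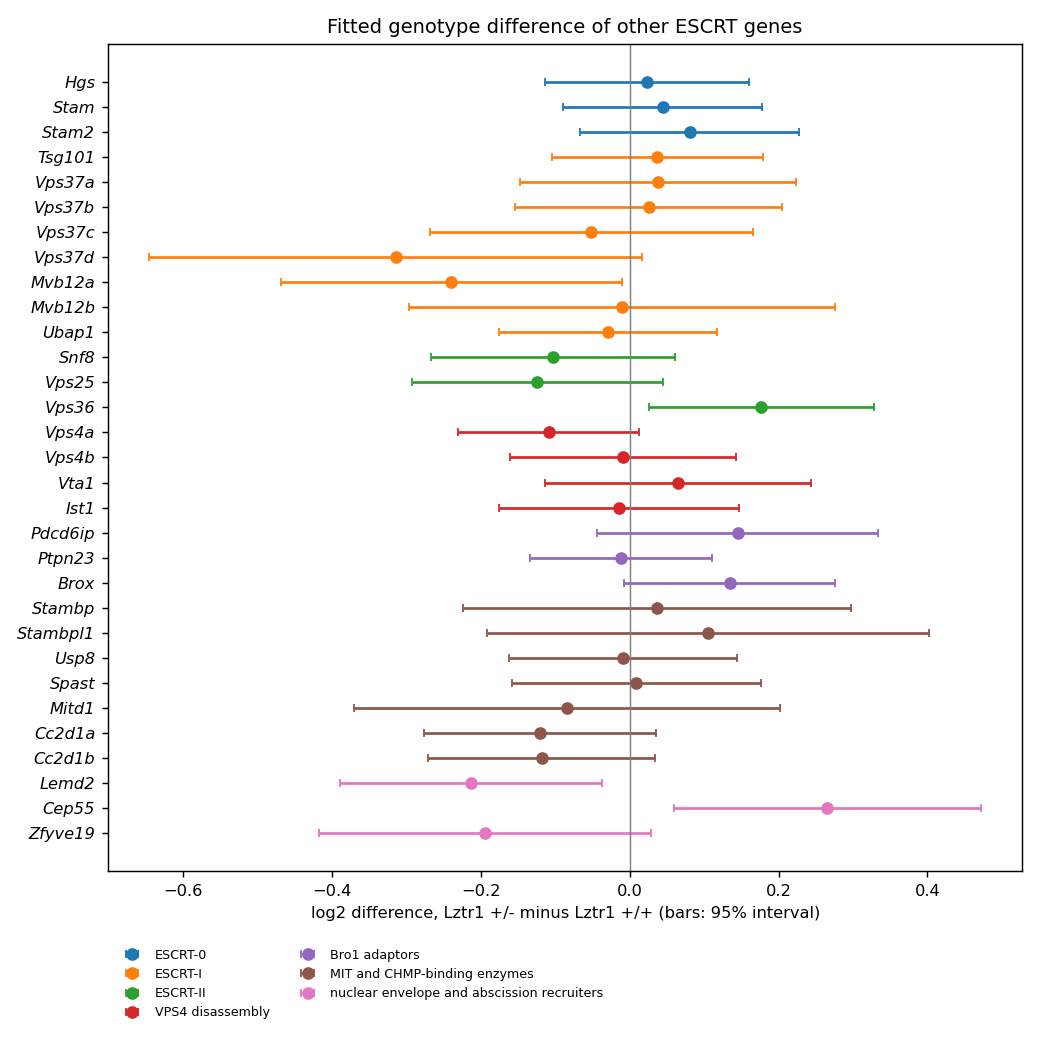
Fitted log2 difference (heterozygous minus wild-type, x axis) of 31 other ESCRT genes by class, with bars for the 95% interval over 3 cultures each. Estimates run from -0.31 for Vps37d to 0.27 for Cep55, and all intervals but those of Mvb12a, Vps36, Lemd2 and Cep55 include 0.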

How the data were processed

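Groups were taken from sample titles. Per the file headers, the RSEM gene tables that the authors deposited, 1 for each culture, hold expected counts (estimated reads per gene), TPM, FPKM and transcript lengths. The submitters' processing notes name RSEM 1.3.1, DESeq2 and mm10. For the aligner, annotation release and strand setting, not given in the sources used here, nothing was assumed. Deposited TPM values were used for levels per length, and deposited FPKM values for their order.

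Symbols and coordinates came from GENCODE M21 by Ensembl number (51633 of 51826 genes). Expected counts were rounded, low genes removed with filterByExpr (14652 genes kept), and genotypes compared with TMM factors and edgeR 4.0.16's quasi-likelihood test in R 4.3.3 without covariates. Alternatives used DESeq2 1.42.0, limma 3.58.1 on log2(TPM + 1), other scalings, filters, terms and culture sets. On simulated counts for 14652 genes edgeR found 46.0% of planted 1.5-fold and 95.0% of planted 2-fold changes and made 5 false calls, while 95.3% of intervals held the planted difference. The shares found depend on how many changes were planted, and may be lower in the real data, where 1 gene was called. The biological coefficient of variation was 11.3%. A count of 3 equalled 0.137 to 0.272 CPM, for counting error only. Transcripts were compared with blastn 2.17.0.

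Members and lists were chosen with earlier results of these data known. The rule named all members and Lztr1, of the other ESCRT genes every gene called or, with none, up to 2 per class by smallest p, and the 3 protein-coding genes nearest Chmp1a in centred log2 CPM. It names no gene of the 12 in the abscission list.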

Additional observations from a re-analysis of the deposited data

How the results depend on the processing

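No paired analysis was possible because the genotypes share no culture number. In the 16 alternatives 0 CHMP members were called, although DESeq2 gave Chmp1b, Chmp4c and Chmp6 no adjusted p. Of 160 recomputed member differences 139 kept their sign, all drawn from the same 6 libraries. No difference that changed sign was called, and the cause was not tested. For Chmp1b they were -0.011 with library totals, -0.015 and -0.016 with limma on log2(TPM + 1) and log2(TPM + 0.1), and -0.025 in the first registered block (cultures 15 and 18 against 10 and 12). In that block Chmp4b was at 0.060 and Chmp5 at 0.059. With the culture run as a term Chmp4c was at -0.16 and Chmp7 at 0.0023, and with a term for Y-linked expression Chmp4c was at -0.10 and Chmp5 at 0.014. Leaving out each culture gave -0.083 to 0.089 for Chmp1b, -0.074 to 0.038 for Chmp4b, -0.20 to 0.28 for Chmp4c, -0.047 to 0.076 for Chmp5, -0.054 to 0.0088 for Chmp6 and -0.071 to 0.024 for Chmp7. Genes called over the whole table numbered 1 with edgeR, 115 with DESeq2 (of 4900 with an adjusted p), 32 with no low-count filter, 0 with limma at either pseudocount, 0 with the length offset, 1450 in the first block, and 0 to 896 when a culture was left out, the highest without wild-type culture 16. ESCRT partner genes called were 0 to 1 in those fits. The Lztr1 difference stayed between -1.08 and -0.91. Its adjusted p was above 0.05 with limma (-0.92 and -0.94), with the length offset (-0.91), and without any 1 culture other than wild-type 16 (-1.06 to -0.97 over all 6). Chmp4c, with the fewest counts of the members, had the widest interval.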

Other observations

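Genes of the midbody and the chromosomal passenger complex, which call on ESCRT-III to finish cell division, were tested in the same fit, and none passed. Of 12 tested, 11 had a higher mean in heterozygous cultures and 1 (Aurkb) a lower one, beside 49.6% of all genes with a higher mean. The median log2 difference of the 12 was 0.04, and edgeR called 0, where 2, both higher, had an unadjusted p under 0.05, beside 5.56% of all genes in that direction. Anln, which encodes the furrow scaffold anillin, measured 167.4, 194.1 and 167.8 CPM in heterozygous cultures 11, 15 and 18, and 143.9, 130.5 and 150.5 CPM in wild-type cultures 10, 12 and 16 (log2 difference 0.32, SE 0.080, adjusted p = 0.313). Ect2, which activates RhoA at the furrow, was at 81.6 ± 4.54 CPM in heterozygous and 68.6 ± 5.57 CPM in wild-type cultures (0.25, SE 0.075, adjusted p = 0.317). Anln and Ect2 were picked after their values were seen, and both had all heterozygous cultures above all wild-type cultures. Of the 12 genes 3 lay above in CPM and 0 below, beside 7.75% and 9.97% of all genes. Whether the direction of the 12 differs from that of all genes was not tested.

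The ligase partners of LZTR1 had no call by edgeR, with Cul3 at 153.8 ± 4.84 CPM in heterozygous and 149.1 ± 8.83 CPM in wild-type cultures (log2 difference 0.04, SE 0.060) and Rbx1 at 80.8 ± 1.03 CPM in heterozygous and 79.9 ± 6.99 CPM in wild-type cultures (0.02, SE 0.070). An X-linked gene that RefSeq also lists as Chmp1b2, 2610002M06Rik, was not among the 10 members. It averaged 17.5 ± 0.412 CPM in heterozygous and 19.2 ± 0.372 CPM in wild-type cultures (SD, n = 3 each), without overlap (log2 difference -0.13, SE 0.081, adjusted p = 0.525), and in TPM the groups overlapped.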
